A study of Mus musculus with 8 samples.

Results

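The 38 genes described here encode the machinery of cell division, and they were measured in astrocytes sorted from the postnatal mouse spinal cord. They were listed by function: 15 act in G1/S entry and S phase, the stage at which DNA is copied, and 23 act mainly from G2 to cytokinesis and are called mitotic here. All 38 were found by symbol and Ensembl identifier among 39179 gene identifiers. The list asks how much proliferative transcript remained in each library, how S-phase and mitotic genes compared, and whether either differed when the potassium channel Kir4.1 was deleted from astrocytes.

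RNA was sequenced from Aldh1l1-GFP+ cells of P12 to P14 mice on a mixed swiss-webster background, sorted by flow cytometry after the meninges had been removed. The control group, labelled wild-type, was cre-negative. The knockout group (cKO) carried Aldh1l1-cre with both Kir4.1 alleles floxed. All animals carried the Aldh1l1-GFP reporter, and the Aldh1l1 promoter, active in astrocytes, drives both the reporter and the cre. Each group had 4 libraries given as biological replicates, named control S1, S2, S6 and S7 and cKO S3, S4, S5 and S8, in which order values are given below.

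Entry into S phase is set by E2F transcription factors, which are released when cyclin-dependent kinases phosphorylate the retinoblastoma family. E2F targets load the MCM helicase at replication origins and supply deoxynucleotides and the replication clamp. A later wave of mitotic genes, bound by the MuvB complex with B-Myb and FoxM1, drives spindle assembly, chromosome segregation and cytokinesis. Astrocytes of the early postnatal central nervous system are known to divide locally before becoming largely quiescent, and oligodendrocyte precursors are a second glial population that cycles at this age.

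The S-phase and mitotic members were also described by their promoter sequences, which the choice of members did not use. Promoter windows from RefSeq (GRCm38.p6), running from 250 bases before to 50 bases after the annotated start, were held for 31 members, 12 S-phase and 19 mitotic. A gene was counted once, with a motif found in any of its windows, so genes with several annotated starts, here Mcm7 and Prc1, had more sequence searched. An E2F element (TTTCCCGC, TTTCGCGC, TTTGCCGC or TTTGGCGC, either strand) occurred in 5 of 12 S-phase genes (41.7%) and 1 of 19 mitotic genes (5.26%), against 2.60% of all 27025 genes. The cell cycle homology region, or CHR (TTTGAA or TTCGAA, either strand), to which MuvB binds, occurred in 2 of 12 S-phase genes (16.7%) and 15 of 19 mitotic genes (78.9%), against 21.7% of all genes. A CCAAT box (CCAAT, either strand), the element of the factor NF-Y, occurred in 8 of 12 S-phase (66.7%) and 17 of 19 mitotic genes (89.5%), against 41.1% of all genes. Both CCAAT box and CHR were found in 2 S-phase and 15 mitotic genes and in 9.65% of all genes. These are matches of letters and not measured binding sites.

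The 250 bases before the start are shown for 5 members that carry these features plainly and hold no annotated exon in that stretch. Each reads 5′ to 3′ on the gene's own strand, with the motifs named in capitals. A motif on the opposite strand appears as its reverse complement, ATTGG for CCAAT and TTCAAA for TTTGAA. Mcm6 and Mcm5, subunits of the replicative helicase, hold E2F elements and CCAAT boxes, and in each a pair of E2F matches on opposite strands overlaps.

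Mcm6, chr1:128359706-128359955, minus strand: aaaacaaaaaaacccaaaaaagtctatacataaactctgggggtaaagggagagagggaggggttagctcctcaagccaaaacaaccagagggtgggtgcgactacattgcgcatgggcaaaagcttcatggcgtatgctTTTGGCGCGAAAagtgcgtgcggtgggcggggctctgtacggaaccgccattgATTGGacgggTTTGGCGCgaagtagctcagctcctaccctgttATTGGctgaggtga

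Mcm5, chr8:75109259-75109508, plus strand: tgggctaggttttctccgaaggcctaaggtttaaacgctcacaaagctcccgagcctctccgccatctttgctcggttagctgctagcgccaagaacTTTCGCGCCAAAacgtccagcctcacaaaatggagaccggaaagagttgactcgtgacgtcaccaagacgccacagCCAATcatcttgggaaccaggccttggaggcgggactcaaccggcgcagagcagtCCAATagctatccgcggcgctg

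In Mcm6 the E2F matches began 110, 106 and 47 bases before the start and the CCAAT boxes 57 and 14 bases before it. In Mcm5 the corresponding distances were 153 and 149 for E2F and 77 and 22 for CCAAT. The next 3 belong to mitotic genes: Mki67, which encodes the proliferation marker Ki-67, Top2a, the topoisomerase that untangles replicated chromosomes, and Kif11, a spindle motor.

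Mki67, chr7:135716380-135716629, minus strand: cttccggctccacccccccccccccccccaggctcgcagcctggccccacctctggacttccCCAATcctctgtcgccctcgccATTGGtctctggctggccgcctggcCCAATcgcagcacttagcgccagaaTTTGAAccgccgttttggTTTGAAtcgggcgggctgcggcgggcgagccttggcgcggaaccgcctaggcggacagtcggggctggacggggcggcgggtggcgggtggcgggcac

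Top2a, chr11:99024190-99024439, minus strand: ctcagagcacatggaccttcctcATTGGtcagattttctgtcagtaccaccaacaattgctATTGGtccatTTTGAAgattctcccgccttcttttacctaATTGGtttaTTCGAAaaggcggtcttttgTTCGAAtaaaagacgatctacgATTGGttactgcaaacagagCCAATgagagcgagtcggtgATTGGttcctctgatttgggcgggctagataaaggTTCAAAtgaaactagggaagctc

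Kif11, chr19:37376132-37376381, plus strand: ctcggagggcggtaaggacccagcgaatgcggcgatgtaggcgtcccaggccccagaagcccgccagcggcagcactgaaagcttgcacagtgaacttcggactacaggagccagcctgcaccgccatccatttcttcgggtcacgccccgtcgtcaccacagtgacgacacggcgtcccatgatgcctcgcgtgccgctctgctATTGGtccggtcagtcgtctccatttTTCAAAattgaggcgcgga

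Mki67 held CCAAT boxes 188, 166 and 141 bases before its start, followed by CHR matches at 116 and 98. Top2a held 6 CCAAT boxes between 227 and 58 bases and 4 CHR matches between 179 and 23 bases before its start. Kif11 held 1 of each, at 45 and 19 bases. None of these 3 stretches held the E2F forms searched.

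The libraries held between 13892736 and 25065686 reads counted in genes. Counts are given below as CPM, in which each library is brought to the same total after scaling by the trimmed mean of M-values. Kcnj10, which encodes Kir4.1, was at 1181, 2306, 1856 and 1937 CPM in control and at 35.6, 27.2, 37.6 and 35.4 CPM in cKO libraries, matching the labels in all 8. Astrocyte markers were abundant in every library, with 10 genes summing to between 16371 and 23846 CPM. Of 14757 genes tested, 47 (0.318%) differed between groups at an adjusted p under 0.05 (edgeR quasi-likelihood test with Benjamini-Hochberg adjustment).

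Proliferation genes were expressed at low levels. Reads on all 38 members made up 0.010% to 0.027% of gene reads per library, or 1655 to 5973 counts. In deposited FPKM, which scales for transcript length and so allows levels to be compared between genes, the members' median was 1.63 over the 8 columns, against 7.85 for all genes tested, and 36 of 38 lay below that all-gene median. Per length and averaged over the columns of both groups, Pcna stood at the top of the list (12.7 ± 5.66 FPKM, SD, n = 8), followed by Tk1 (12.2 ± 5.31), Ube2c (7.63 ± 2.86), Top2a (7.31 ± 7.86) and Rrm1 (5.47 ± 1.03). Neighbours in this order differed by less than their spread, and the order was not the same in each group. Tk1 and Pcna averaged 14.8 ± 4.92 and 14.6 ± 7.88 FPKM in control and 9.63 ± 4.85 and 10.9 ± 1.83 FPKM in cKO (SD, n = 4 each), and Ube2c averaged 5.64 ± 1.33 and 9.63 ± 2.59 FPKM. Mki67 ranked 23rd with 1.26 ± 1.39 FPKM, and Kif23, a motor of cytokinesis, came last with 0.0817 ± 0.103 FPKM. The S-phase median was 2.29 and the mitotic median 1.55 FPKM.

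At the depth available, 27 of 38 members averaged under 5 CPM in both groups. A count of 0 allows up to 3 reads, or 0.128 to 0.218 CPM depending on the library, and this limit covers counting error only. In all, 10 members, 3 S-phase and 7 mitotic, had no read in at least 1 library. cKO S4 and cKO S5 each lacked reads for 5 members, while cKO S3 and cKO S8 had reads for all 38. In addition, 12 members share exon bases with another annotated gene: Ccne2, Gins2, Mcm7, Tk1, Top2a, Ccna2, Plk1, Kif20a, Nusap1, Ube2c, Cdc20 and Prc1. Their counts may hold reads of that gene or lack reads that fit both genes.

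**Figure D1:**
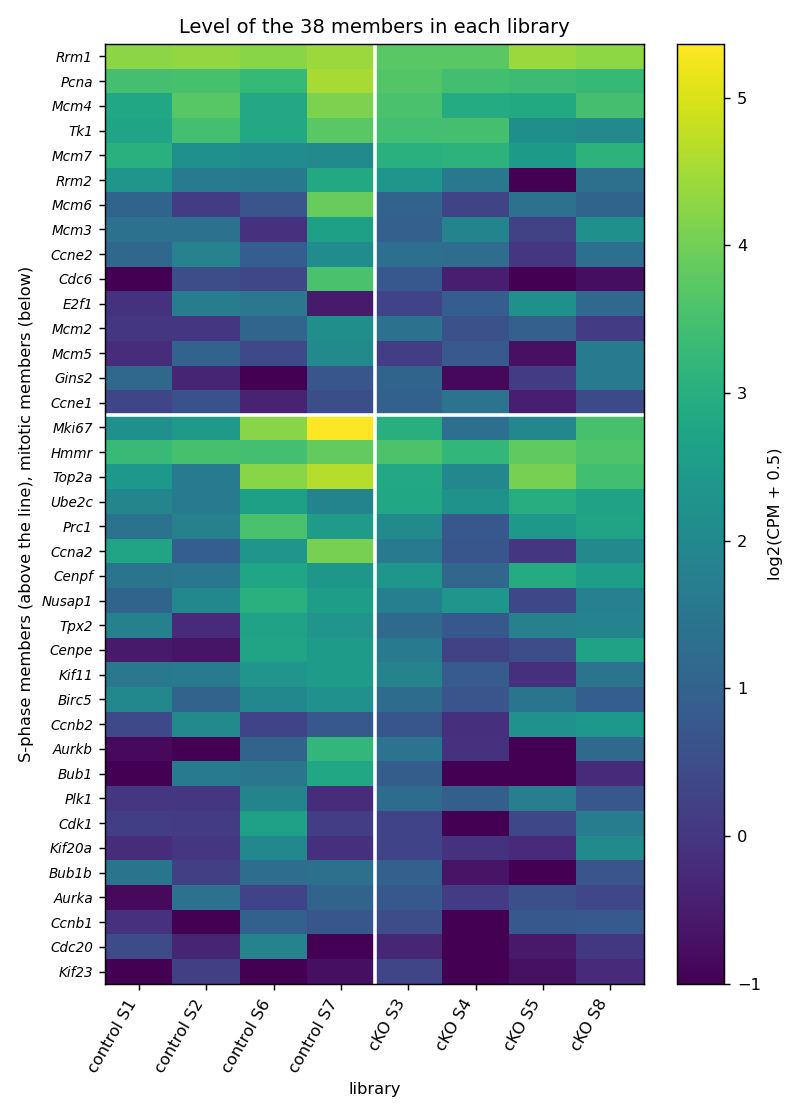
Level of each of the 38 members (rows, S-phase above mitotic) in each of the 8 libraries (columns), as log2(CPM + 0.5). Most members are low throughout, and control S7 holds the highest value of 19 members.

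No member differed between control and cKO at an adjusted p under 0.05. Of the 38, 35 had counts enough to be tested, and Kif20a, Kif23 and Cdc20 did not. DESeq2, which gave an adjusted p for 30 of these 35, and limma-voom also called 0 members. Among all genes 0.318% passed, 0.203% higher and 0.115% lower in cKO. The lowest adjusted p among the 35 members was 0.416, for Ccna2. At an unadjusted p under 0.05, 2 members were lower in cKO, Ccna2 and Mki67, which is 5.71% of those tested against 4.77% of all genes, and 0 were higher, against 5.03% (9.81% in either direction). No member had groups that did not overlap, against 6.34% of all genes tested (3.39% higher and 2.94% lower in cKO). The fitted log2 fold change (cKO over control) was below 0 for 25 of 35 members (71.4%), against 51.6% of all genes. Its median was -0.39, against -0.02 for all genes, and it ranged from -3.09 (Cdc6) to 0.73 (Ccnb2). This excess of negative values rested on 1 library: without control S7 the members' median was 0.04, with 17 of 36 below 0.

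The precision of these comparisons was limited. The median biological coefficient of variation was 0.758 for the members and 0.375 for all genes, and 32 of 35 members lay above the all-gene median. The 95% interval of the log2 fold change included no change for 33 of 35 members, yet it reached a 2-fold decrease for 30 and a 2-fold increase for 17. Only Rrm1 among the S-phase members and Hmmr among the mitotic members had intervals inside 2-fold in both directions. Because these are bulk samples, fewer cycling cells and less transcript per cycling cell cannot be told apart.

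**Figure D2:**
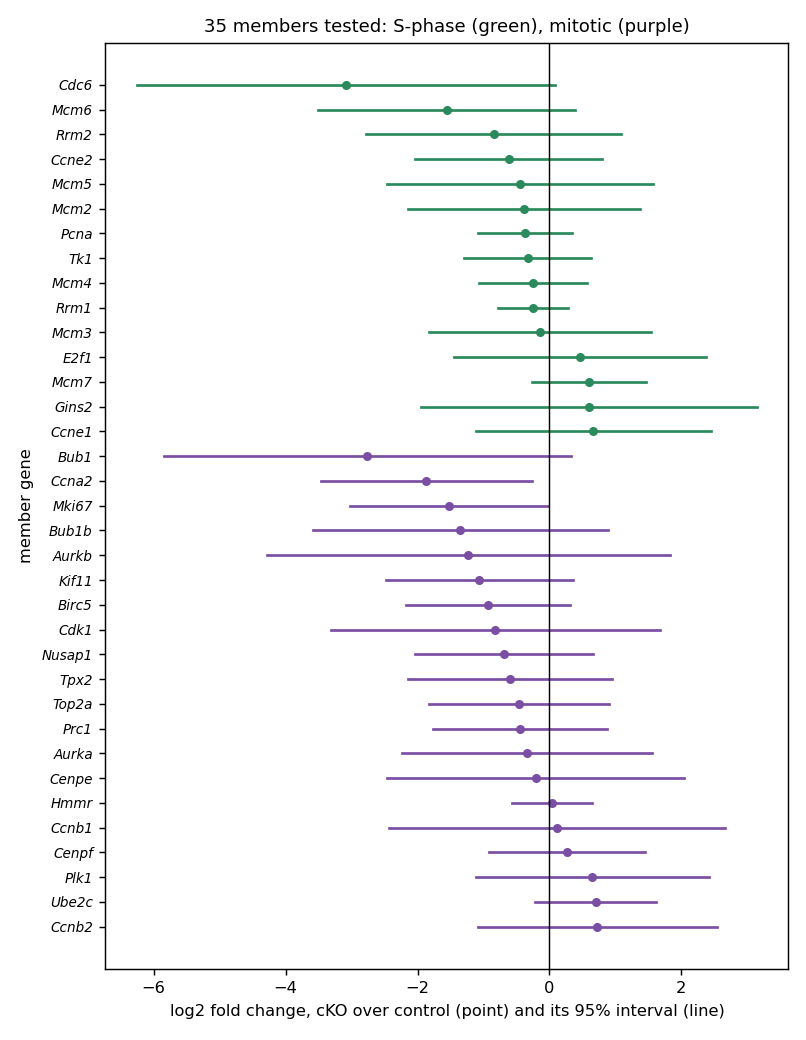
Log2 fold change (cKO over control) of the 35 tested members with 95% intervals, S-phase members in green and mitotic members in purple. The intervals of 33 cross 0, and those of Ccna2 and Mki67 lie below it.

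Among S-phase members, all 15 were tested, 11 had a negative log2 fold change, the median was -0.33 and the lowest adjusted p was 0.520. Pcna (chr2:132249162-132253314) encodes the sliding clamp that holds DNA polymerase on its template. It measured 10.7, 10.9, 9.17 and 22.5 CPM in control and 12.1, 10.4, 9.80 and 9.03 CPM in cKO libraries. Control S7 stood above the other 7 libraries, which lay within 9.03 to 12.1 CPM, and the groups overlapped. The difference was -0.37 on the log2 scale (SE 0.33, adjusted p = 0.766).

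The helicase subunits Mcm2 to Mcm7 act as 1 ring of 6 different proteins. Transcripts of Mcm2 to Mcm6 were each highest in control S7 and that of Mcm7 in cKO S8, and their profiles otherwise differed. Mcm6 was at 1.58, 0.582, 1.10 and 14.2 CPM in control and 1.53, 0.726, 2.11 and 1.58 CPM in cKO libraries. Control S7 held 60.7% of its summed CPM. Its log2 fold change was -1.56 (SE 0.90, adjusted p = 0.611), and it turned to 0.46 without control S7. Mcm7 went the other way, with 7.73, 4.08, 3.79 and 3.65 CPM in control and 7.76, 8.12, 5.07 and 8.13 CPM in cKO libraries. Control S1 fell among the cKO values, and the other 3 control libraries lay below all 4 cKO libraries. The means were 4.81 ± 1.96 and 7.27 ± 1.48 CPM (SD, n = 4 each; exact permutation test, 2-sided, p = 0.0571, where 0.0286 is the smallest this design allows), and the log2 fold change was 0.60 (SE 0.40, adjusted p = 0.671). Mcm7 shares exon bases with Ap4m1, Cops6, Mir25 and Mir93.

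Mcm4 measured 6.40, 12.7, 6.70 and 16.7 CPM in control and 11.2, 7.03, 6.84 and 10.6 CPM in cKO libraries, with every cKO value inside the control range (log2 fold change -0.25, SE 0.38, adjusted p = 0.876). Mcm2 (chr6:88883474-88898780) was at 0.507, 0.510, 1.59 and 4.03 CPM in control and 2.09, 0.998, 1.42 and 0.599 CPM in cKO libraries. All cKO values lay inside the control range (-0.38, SE 0.82, adjusted p = 0.917), and its log2 fold change was 0.55 without control S7. Mcm3 and Mcm5 stayed between 0.114 and 5.68 CPM, each with its highest value in control S7.

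Cdc6, which loads the helicase at origins, had the most negative log2 fold change of the list. It was at 0, 0.946, 0.769 and 11 CPM in control and 1.17, 0.227, 0 and 0.0856 CPM in cKO libraries. Control S7 held 77.5% of the summed level, and the other 7 libraries lay at or under 1.17 CPM in both groups. The estimate of -3.09 (SE 1.47, adjusted p = 0.520) was -0.61 without that library. Ccne1 (cyclin E1, partner of Cdk2 at S-phase entry) was at 0.761, 1.02, 0.275 and 0.947 CPM in control and 1.48, 2.18, 0.228 and 0.856 CPM in cKO libraries. Its cKO values spanned the whole control range (0.66, SE 0.82, adjusted p = 0.847). Ccne2, E2f1 and the GINS subunit Gins2 ranged from 0 to 4.1 CPM, with adjusted p of 0.811, 0.907 and 0.911.

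The members that supply deoxynucleotides are Rrm1, Rrm2 and Tk1. Rrm1 encodes the large subunit of ribonucleotide reductase, which is long-lived and present through the cell cycle, whereas the small subunit Rrm2 is made in S phase. Rrm1 measured 18.8, 19.8, 18.1 and 20.6 CPM in control and 12.9, 12.7, 20.6 and 19.0 CPM in cKO libraries. The control libraries lay close together, and cKO S3 and S4 fell below them while cKO S5 and S8 did not. The means were 19.3 ± 1.10 and 16.3 ± 4.07 CPM (SD, n = 4 each; log2 fold change -0.24, SE 0.25, interval -0.78 to 0.29, adjusted p = 0.798). Rrm2 ranged from 2.05 to 6.82 CPM in 7 libraries and had no read in cKO S5. Thymidine kinase 1 (Tk1) was at 6.08, 10.5, 6.70 and 12.7 CPM in control and 10.6, 10.6, 3.99 and 3.51 CPM in cKO libraries. cKO S3 and S4 lay inside the control range and cKO S5 and S8 below it (-0.33, SE 0.45, adjusted p = 0.860), and Tk1 shares exon bases with Afmid.

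Among mitotic members, 20 of 23 were tested, 14 had a negative log2 fold change, the median was -0.53 and the lowest adjusted p was 0.416. Mki67 (chr7:135689784-135716361, minus strand) measured 4.06, 4.95, 18.3 and 40.6 CPM in control and 7.51, 2.0, 3.42 and 10.8 CPM in cKO libraries. Control S6 and S7 lay above every cKO library, and control S1 and S2 lay within the cKO range. The means were 17.0 ± 17.1 and 5.94 ± 4.01 CPM (SD, n = 4 each), the log2 fold change was -1.52 (SE 0.69, interval -3.02 to -0.02), and the p of 0.0477 became 0.502 after adjustment over all genes. By an exact permutation test of the CPM values the 2-sided p was 0.286. Leaving out single libraries moved the log2 fold change between -1.98 and -0.61, the last without control S7.

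Ccna2 (chr3:36564865-36572150, minus strand) encodes cyclin A2, which acts in S phase and at entry into mitosis. It was at 6.02, 1.38, 4.61 and 16.2 CPM in control and 2.55, 1.13, 0.513 and 3.51 CPM in cKO libraries. Of the control libraries, 3 exceeded all cKO libraries and control S2 did not. The means were 7.05 ± 6.40 and 1.93 ± 1.36 CPM (SD, n = 4 each; log2 fold change -1.87, SE 0.74, interval -3.47 to -0.27, adjusted p = 0.416). Leave-one-out values ran from -2.33 to -1.04, so the sign did not depend on 1 library. Part of its exon sequence is shared with Exosc9. The authors' deposited table gives Ccna2 and Mki67 as the 2 members with p under 0.05, with adjusted p of 0.165 and 0.265, and no member under 0.05 after adjustment. It holds a p for 35 members, not for Cdc6, Mcm6 and Kif20a, and an adjusted p for only 22.

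Top2a (chr11:98992943-99024189, minus strand) measured 4.75, 2.55, 18.2 and 24.7 CPM in control and 6.69, 3.45, 16.1 and 10.4 CPM in cKO libraries. Control S6 and S7 were again the highest, but cKO S5 came close to control S6 (-0.46, SE 0.63, adjusted p = 0.861), and the log2 fold change was 0.12 without control S7. Cdk1, the kinase that triggers mitosis, was at 0.634, 0.582, 5.71 and 0.616 CPM in control and 0.715, 0, 0.798 and 2.74 CPM in cKO libraries. Only control S6 and cKO S8 exceeded 1 CPM, so its highest library was not that of Mki67. Its log2 fold change was -0.82 (SE 1.15, adjusted p = 0.864) and 0.80 without control S6.

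Several mitotic members had no excess in the control libraries. Hmmr, which encodes a spindle-assembly and hyaluronan-binding protein, was at 9.25, 10.8, 10.5 and 13.8 CPM in control and 11.4, 8.71, 13.6 and 11.8 CPM in cKO libraries. Its group means, 11.1 ± 1.94 and 11.4 ± 2.03 CPM (SD, n = 4 each), gave the narrowest mitotic interval, -0.57 to 0.64 around 0.03 (adjusted p = 0.981). Ube2c, the ubiquitin-conjugating partner of the anaphase-promoting complex, was at 3.30, 2.62, 5.60 and 3.17 CPM in control and 6.54, 4.35, 7.24 and 5.82 CPM in cKO libraries. Control S6 overlapped the cKO range and the other 3 control libraries lay below it (0.70, SE 0.42, adjusted p = 0.625; exact permutation test, 2-sided, p = 0.0571), and Ube2c shares exon bases with Tnnc2. Ccnb2 (cyclin B2) measured 0.824, 3.64, 0.714 and 1.18 CPM in control and 1.12, 0.408, 4.16 and 4.79 CPM in cKO libraries, so that cKO S5 and S8 exceeded all controls and cKO S3 and S4 did not (0.73, SE 0.84, adjusted p = 0.834).

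Bub1, Aurkb and Cenpe, picked out after their values were seen, varied widely within groups. Bub1, a checkpoint kinase, was at 0, 2.55, 2.31 and 6.58 CPM in control and 1.33, 0, 0 and 0.342 CPM in cKO libraries (-2.76, SE 1.43, adjusted p = 0.557). Aurkb, the kinase of the chromosomal passenger complex, was at 0.0634, 0, 1.54 and 8.72 CPM in control and 2.2, 0.454, 0 and 1.75 CPM in cKO libraries (-1.23, SE 1.41, adjusted p = 0.833). Both had their highest value in control S7, and both had no read in 1 control library and at least 1 cKO library. The kinetochore motor Cenpe was at 0.190 and 0.146 CPM in control S1 and S2 and at 6.04 and 5.16 CPM in control S6 and S7, a contrast within 1 group, while the cKO libraries ranged from 0.680 to 5.86 CPM. Of the other members, Kif11, Birc5, Bub1b, Tpx2, Nusap1, Prc1 and Aurka had log2 fold changes from -1.35 to -0.34, and Ccnb1, Cenpf and Plk1 from 0.11 to 0.65, with adjusted p from 0.633 to 0.984. The untested Kif20a, Kif23 and Cdc20 stayed at or under 3.6 CPM in all libraries.

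Summed over members, the libraries of 1 group differed more than the groups did. S-phase CPM summed to 63.4, 73.4, 55.7 and 127 in control and 71.7, 63.2, 56.0 and 68.6 in cKO libraries, with means of 80.0 ± 32.5 and 64.9 ± 6.87 (SD, n = 4 each). Mitotic CPM summed to 48.4, 47.1, 126 and 155 in control and 67.7, 34.7, 70.6 and 87.7 in cKO libraries, with means of 94.3 ± 55.0 and 65.2 ± 22.2. For S-phase genes 1 control library, S7, stood apart, whereas for mitotic genes both S6 and S7 did. The ratio of mitotic to S-phase CPM was therefore 0.763, 0.642, 2.27 and 1.22 in control and 0.944, 0.549, 1.26 and 1.28 in cKO libraries. Control S6 had the highest ratio, with the lowest S-phase sum of all 8 libraries beside the second-highest mitotic sum. The group means of the ratio were 1.22 ± 0.738 and 1.01 ± 0.343. Mki67 and Top2a, both abundant and both high in S6 and S7, carried part of this. Without them the mitotic sums were 39.6, 39.6, 89.6 and 90.1 in control and 53.5, 29.3, 51.0 and 66.5 in cKO libraries, so S6 and S7 were still the highest. The library numbers also followed the sums over all 23 mitotic members. Every library numbered S5 to S8 had a higher such sum (70.6 to 155) than any numbered S1 to S4 (34.7 to 67.7). Their ratios to the S-phase sum were also higher (1.22 to 2.27 against 0.549 to 0.944), while the S-phase sums of the runs overlapped. Without Mki67 and Top2a the mitotic sums of the runs overlapped too, with cKO S5 (51.0) below cKO S3 (53.5). The ratios of the runs then overlapped as well. Control S7 had 90.1 mitotic beside 127 S-phase CPM, a lower ratio than in cKO S3 (53.5 beside 71.7). Mki67, Top2a and Ccna2 are active from S phase on but were counted as mitotic, and the ratios depend on that assignment. Each run of numbers holds 2 libraries of each group, and the labels do not say that a run is a batch. Within S1 to S4 the control mitotic sums (47.1 and 48.4) lay between those of cKO (34.7 and 67.7), and within S5 to S8 both controls lay above both cKO libraries. The part of the library order in these sums was not tested.

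**Figure D3:**
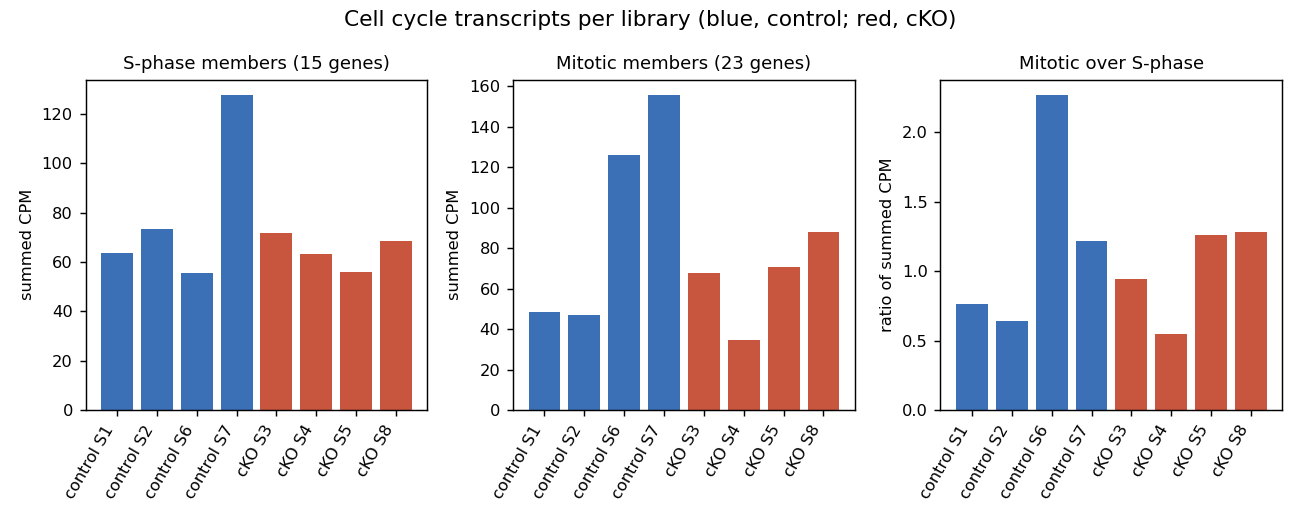
Summed CPM of the 15 S-phase members, summed CPM of the 23 mitotic members, and the mitotic to S-phase ratio, 1 bar per library, control in blue and cKO in red. Control S7 is high in both sums, and control S6 is high in the mitotic sum only, which gives it the highest ratio (2.27).

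Counted by member, 29 of 38 (76.3%) had their highest CPM in a control library, against 54.9% of all genes tested, and 19 of these, 11 S-phase and 8 mitotic, had it in control S7, where 20.0% of all genes tested peaked. Control S6 was highest for 8 members, all mitotic, where 14.4% of all genes peaked. Control S6 and S7 together formed the top pair for 5 members, all of them mitotic, against 7.65% of all genes. cKO S5, where 20.6% of all genes had their highest value, was highest for only 3 members.

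Among the controls, markers of oligodendrocyte precursors were also highest in S6 and S7. Their 7 genes, all detected in every group, summed to 444, 311, 688 and 1104 CPM in control and 460, 229, 247 and 221 CPM in cKO libraries. Gpr17 alone contributed most to this sum in every library, from 132 CPM in cKO S8 to 751 CPM in control S7. The sum therefore follows Gpr17 above all, and it does not measure how many precursors were cycling. For 6 of the 7, all but Cspg4, control S6 and S7 were the top pair. Pdgfra was at 38.8 and 72.0 CPM there and at 32.1 CPM in cKO S3. In the cKO group the precursor and mitotic sums were not ordered alike. cKO S8 had the highest mitotic sum of that group (87.7 CPM) and the lowest precursor sum (221 CPM). cKO S3 had its highest precursor sum (460 CPM), with a mitotic sum of 67.7 CPM. All 7 precursor markers had a log2 fold change below 0, and 5 had an unadjusted p under 0.05, but none passed adjustment (lowest adjusted p = 0.246, edgeR). Fibroblast markers (6 genes, with Pdgfra on both lists) summed to 124, 201, 614 and 248 CPM in control and 182, 78.8, 93.1 and 157 CPM in cKO libraries, highest in control S6. Astrocyte markers summed to 23846, 22111, 16434 and 16371 CPM in control and 18955, 23402, 19166 and 19320 CPM in cKO libraries, with the lowest sums in control S6 and S7. The glutamate transporter gene Slc1a2 contributes most to this sum in every library, and not every astrocyte marker followed it. Gfap was higher in control S6 and S7 (257 and 289 CPM) than in S1 and S2 (165 and 145 CPM), and Aldh1l1, whose promoter drives the sorted reporter, was at 151, 135, 131 and 139 CPM in the controls. Aldh1l1 and Aqp4 were higher in cKO, with log2 fold changes of 1.01 and 1.09 (adjusted p = 0.0179 and 0.0243, edgeR). Only the cKO group carried Aldh1l1-cre, so the transgene and the Kir4.1 deletion cannot be told apart in this difference. Oligodendrocyte markers (9 genes) summed to 1475 to 2918 CPM in control and 987 to 2412 CPM in cKO libraries, and neuron markers (9 genes) to 36.0 to 80.5 and 23 to 38.8 CPM. Microglia, endothelial, mural, ependymal and erythroid markers stayed at or under 71.0 CPM in every library. The part of these other cells in the levels of the proliferation genes was not tested. Neural progenitor markers, several of which astrocytes also express, ranged from 316 to 380 CPM in control and from 295 to 335 CPM in cKO libraries.

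**Figure D4:**
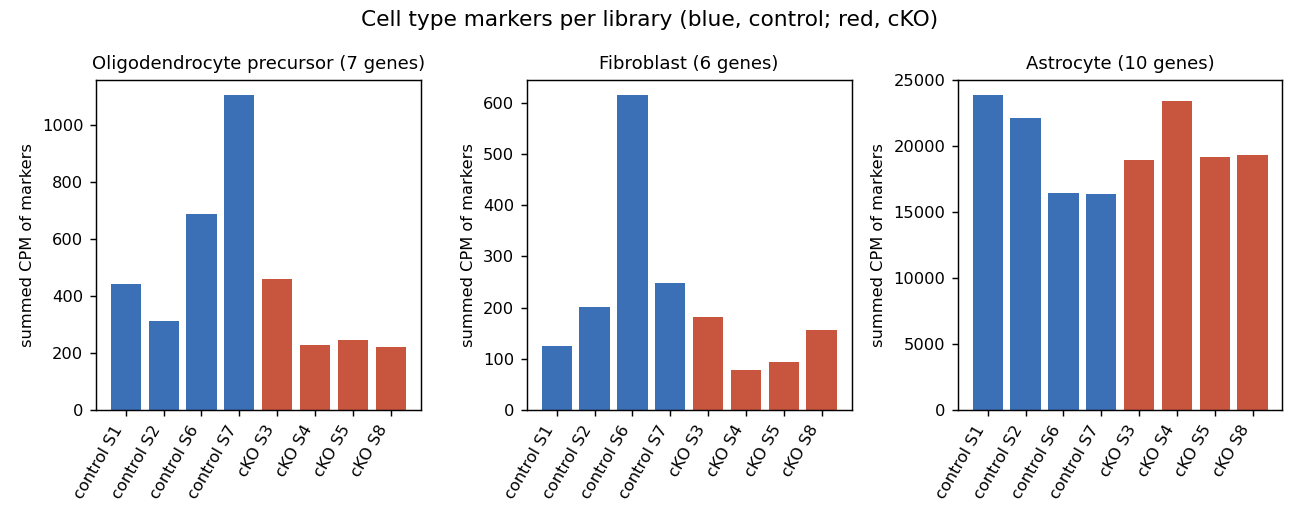
Summed CPM of oligodendrocyte precursor, fibroblast and astrocyte markers, 1 bar per library, control in blue and cKO in red. The precursor sum is highest in control S6 (688) and S7 (1104), where the astrocyte sum is lowest.

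The wider cell cycle network was examined through 133 further genes in 8 lists, none of them members. Of these, 117 were tested and 0 passed adjustment in edgeR and limma-voom, while 1, Racgap1, passed in DESeq2. In edgeR, 2 were higher in cKO at an unadjusted p under 0.05 (1.71%, against 5.03% of all genes) and 9 were lower (7.69%, against 4.77%). Their median log2 fold change was -0.12. In the list of 41 mitotic apparatus genes, 35 were tested, the median was -0.42, and 4 were lower and 0 higher without adjustment. For 37 replication factors the median over 32 tested was -0.07, with 2 lower and 0 higher. The 15 subunits and partners of the anaphase-promoting complex had a median of -0.04, with 1 lower. The groups did not overlap for 3 of the 35 mitotic apparatus genes and 3 of the 32 replication factors. The same held for 2 of 11 pocket proteins and E2F factors, 1 of the 15 anaphase-promoting complex genes and 0 in the remaining lists. Among all genes tested the share was 6.34%, and whether any list held more than that share was not tested.

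Racgap1, whose product organises the central spindle together with Kif23 during cytokinesis, had the lowest adjusted p of the network. It measured 61.2, 33.4, 20.0 and 17.4 CPM in control and 13.4, 7.48, 6.90 and 7.11 CPM in cKO libraries. All control libraries exceeded all cKO libraries, and its order among controls was the reverse of that of Mki67, with S1 highest and S7 lowest. The means were 33.0 ± 20.0 and 8.72 ± 3.12 CPM (SD, n = 4 each), 3.79-fold apart, and the log2 fold change was -1.92 (SE 0.40, adjusted p = 0.0746, edgeR). The adjusted p was 1.54e-04 with DESeq2, 0.0193 and 0.0334 with a looser and a stricter filter on low counts, 0.130 with limma-voom and 0.425 with log2 FPKM, and it ran from 0.0447 (without control S7) to 0.277 over leave-one-out fits. Racgap1 shared no exon bases with another gene.

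Genes that act at the G1 decision gave no call after adjustment in edgeR, DESeq2 or limma-voom. E2f3, an activator E2F, was at 32.1, 26.4, 26.8 and 30.8 CPM in control and 20.6, 18.3, 11.9 and 23.2 CPM in cKO libraries, without overlap (log2 fold change -0.65, SE 0.24, adjusted p = 0.382). Its dimer partner Tfdp1 averaged 11 ± 2.47 CPM in control and 19.4 ± 8.32 CPM in cKO (n = 4 each; 0.81, adjusted p = 0.437). Cdkn1a, which encodes the inhibitor p21, was at 75.9, 94.5, 31.9 and 62.1 CPM in control and 83.4, 90.6, 141 and 100 CPM in cKO libraries. Control S6 and S7, high for Mki67, had the 2 lowest Cdkn1a values, and control S2 overlapped the cKO range (0.65, SE 0.28, adjusted p = 0.470). Ccnd1 (cyclin D1) averaged 22.6 ± 23.3 CPM in control and 11.4 ± 5.29 CPM in cKO, with 57.0 CPM in control S7 (-1.0, adjusted p = 0.607). Ccnd3 and Cdkn2d had log2 fold changes of 0.40 and -0.17.

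Pole, the catalytic subunit of the leading-strand polymerase, was at 5.96, 4.66, 12.1 and 16.3 CPM in control and 2.91, 4.90, 2.51 and 3.81 CPM in cKO libraries. As with Mki67, control S6 and S7 were the highest (-1.47, SE 0.46, adjusted p = 0.275), and Pole shares exon bases with Gm15792. Orc3, a subunit of the origin recognition complex, lay higher in every cKO library than in any control library, by little (51.0 ± 5.65 against 63.9 ± 7.75 CPM, n = 4 each; 0.32, adjusted p = 0.552). Anapc11, the RING subunit of the anaphase-promoting complex, lay lower in every cKO library (10.9 ± 1.3 against 6.15 ± 2.35 CPM, n = 4 each; -0.83, adjusted p = 0.468). The remaining genes named by the same rule had adjusted p from 0.620 to 0.843: Rbbp4 (-0.49) and Lin37 (0.36) of the MuvB core, the Cdk1-inhibiting kinase Wee1 (-1.82), its opposing phosphatase Cdc25a (0.44), securin Pttg1 (0.75) and Anapc13 (0.45).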

How the data were processed

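Raw read counts per gene were deposited for each of the 8 libraries, and the authors also deposited FPKM values and a table of their comparison. That table holds mean normalized counts (a signal), log2 fold changes, standard errors and test statistics (a score), and p-values, per the file headers. The submitters' processing notes name FastQC 0.11.4, TopHat2 2.0.11, Bowtie2 2.2.3, HTSeq 0.6.1p1, DESeq2 1.14.1, Cuffnorm, Cufflinks 2.2.1 and GRCm38; the strand setting is not given in the sources used here, so reads of overlapping genes cannot be separated. Per the labels' protocols, RNA was amplified with the NuGEN RNA-Seq V2 kit. Of the lines in each count file, 5 name no gene and held 56.4% to 61.7% of reads; they were left out.

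Counts were fitted in edgeR 4.0.16 (R 4.3.3) over all genes passing filterByExpr, with trimmed-mean scaling and the quasi-likelihood test. P-values of the 14757 genes tested were adjusted by Benjamini-Hochberg, and the threshold was 0.05. The fit was tested on simulated data. Alternatives were DESeq2 1.42.0, limma 3.58.1 (voom, and log2 of FPKM with pseudocounts of 1 and 0.1), other scalings and filters, Xist as a covariate and leaving out each library. The FPKM columns followed the count file of the same library for only 3 of 8 names, and that of the same group for all 8, so FPKM is given over columns and library names follow the counts. Exon overlaps and gene positions are from GENCODE M21 (GRCm38). Values are given in every library for 5 fixed members, for the 4 members of highest mean CPM in each phase, and for the 2 of lowest unadjusted p in each phase and direction. Of each pathway list, the gene of lowest unadjusted p in each direction is named. The members and lists were chosen with earlier results of these data known. Bub1, Aurkb, Cenpe and Rrm2 were singled out after their values were seen. Replicate p-values set the difference between groups against the spread between libraries.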

Additional observations from a re-analysis of the deposited data

Results flagged for a closer look

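Within groups of 4 libraries, 82 sets of values were screened for a library standing apart from the other 3, by Dixon's 95% criterion, and 12 were found. Chance meets the criterion in about 1 set in 20 for independent, normally distributed values. These CPM values are often near 0 and come from genes measured in the same libraries, so the number found was not set against chance. Control S7 stood above the other controls for Cdc6 (11 CPM, the others 0 to 0.946), Mcm6 (14.2 CPM, the others 0.582 to 1.58) and Pcna (22.5 CPM, the others 9.17 to 10.9), all S-phase genes. Control S6 stood above the others for Cdk1 (5.71 CPM, the others 0.582 to 0.634), Plk1 (3.19 CPM, the others 0.379 to 0.510) and Kif20a (3.41 CPM, the others 0.380 to 0.510), all mitotic genes. Control S2 stood above the others for Ccnb2 (3.64 CPM, the others 0.714 to 1.18) and Kif23 (0.655 CPM, the others 0 to 0.0947). Control S1 stood above the others for Mcm7 (7.73 CPM, the others 3.65 to 4.08). In the cKO group, S5 was lowest for Ccne2 (0.513 CPM, the others 1.91 to 2.01) and Mcm7 (5.07 CPM, the others 7.76 to 8.13), and S8 was highest for Kif20a (3.6 CPM, the others 0.342 to 0.715).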

How the results depend on the processing

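No member was called under any count-based alternative run. Not all members could be called in each: 13 were tested with at least 10 counts in every library, and DESeq2 gave an adjusted p for 30. Over all genes, the number called was 47 in the main analysis, 306 with DESeq2, 87 when 1 count in any library sufficed, 84 with at least 10 counts in every library, 28 with Xist as a covariate, 62 with library totals (48 higher and 14 lower), and 4 to 45 when single libraries were left out. The log2 fold change changed sign without control S7 for Top2a (-0.87 to 0.12 over leave-one-out fits), Pcna (-0.51 to 0.013), Mcm2 (-0.72 to 0.55), Mcm4 (-0.43 to 0.059), Mcm6 (-1.92 to 0.46) and Ccnd1 (-1.35 to 0.033), and without control S6 for Cdk1 (-1.90 to 0.80). Hmmr turned with the Xist covariate (-0.012) and without control S1 or cKO S5 (-0.057 to 0.16). Ccnd3 turned with FPKM (-0.11 with either pseudocount), and Cdkn2d without control S2, cKO S5 or cKO S8 (-0.47 to 0.094). The log2 ratio of the summed S-phase CPM ranged from -0.44 to 0.016 over leave-one-out analyses, that of the mitotic CPM from -0.76 to -0.18 and that of their ratio from -0.42 to 0.18. The cause of these changes was not tested. The groups share no replicate numbers, so libraries were not paired. The fits also held no term for the runs of library numbers S1 to S4 and S5 to S8. Depth limits the members under 5 CPM.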
